A study of Mus musculus with 4 samples.

Results

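Cytosolic ribosomal protein genes were followed in MC38 cells, a mouse colon cancer line, by RNA sequencing of polyadenylated transcripts, with 24 h of exposure to 5-FU or PBS. They were taken by symbol: 83 of the 36445 genes in the deposited table are named Rps or Rpl with a number and at most 2 letters, or are Rplp0, Rplp1, Rplp2 or Rpsa, with Rps27l left out. Of these, 32 belong to the small subunit of the ribosome and 51 to the large subunit. The annotation (GENCODE M21 on GRCm38) lists 80 as protein-coding and Rpl37rt, Rpl6l and Rps4l as pseudogenes. The rule does not match Rps3a1, Fau and Rack1, which are given separately, and Rpl24 was not analysed here. The 5-FU group held 2 libraries of MC38 cells given 1 mM 5-FU, a fluorinated uracil that cells turn into an inhibitor of thymidylate synthase and also build into their RNA and DNA. The PBS group held 2 libraries of MC38 cells given PBS for the same time. MC38 is a single established line, and the labels do not say whether the replicates were separate cultures. For that reason a p-value here reflects only how far these libraries differ, which may be technical.

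A ribosome joins a small subunit, which reads the messenger RNA, to a large subunit, which forms the peptide bond and releases the growing chain through an exit tunnel. Nearly every ribosomal protein is needed in equal number, and proteins made in excess are degraded. Their messenger RNAs are short, very abundant and begin with a C followed by a run of pyrimidines, the 5' terminal oligopyrimidine (TOP) tract, through which the kinase mTORC1 and the binding protein LARP1 control their translation and stability. 5-FU is known to disturb the processing of ribosomal RNA. When assembly is disturbed, free ribosomal proteins such as Rpl5 and Rpl11 bind Mdm2, the ubiquitin ligase that holds p53 down.

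The TOP tract is the sequence feature these genes are best known for. Pyrimidine runs near the annotated start are therefore shown for genes at both ends of the 5-FU response and between them. RefSeq promoter windows on GRCm38.p6, from 250 bases before to 50 bases after each annotated start, were found for 61 members (72 windows). In 43 windows (59.7%) a C followed by at least 5 more C or T on the gene's strand began within 20 bases of the start, against 31.4% of the 32851 windows of all genes. In the 30-base stretches below, read 5' to 3' on the gene's strand, capitals mark such a run, called a tract here. Its first base lay at -4 from the annotated start in Rplp2, -15 in Rps15a, 9 in Rps12 and 1 in Rpl38. It lay at -1 in Rps6, -17 in Rpl4, 3 in Rpl13a and 18 in Rpl10a. Another window of Rpl10a, not shown, had a run at -9. Whether any of these runs begins the messenger RNA was not tested. The first 4 genes were higher after 5-FU, Rps6 and Rpl4 did not pass the test, and Rpl13a and Rpl10a were at the low end.
Rplp2: gtcagcgtCTTCCTTTCgccgccggacgcc
Rps15a: ccggcccaCTCTCTTTCTgccatcttccct
Rps12: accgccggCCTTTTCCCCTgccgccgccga
Rpl38: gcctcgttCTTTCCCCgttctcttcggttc
Rps6: aagtcgggCCTCTTTTTCgtgacgcctccc
Rpl4: tgacaagtCTTTCCTTTTCCTgtgggagca
Rpl13a: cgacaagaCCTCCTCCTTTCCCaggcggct
Rpl10a: gcgctctgCCTTCTTTCCggtttccgcggc
These stretches are Rplp2 at chr7:141447639-141447668 (plus strand), Rps15a at chr7:118116141-118116170 (minus strand), Rps12 at chr10:23787180-23787209 (minus strand), Rpl38 at chr11:114668572-114668601 (plus strand), Rps6 at chr4:86857347-86857376 (minus strand), Rpl4 at chr9:64173362-64173391 (plus strand), Rpl13a at chr7:45128722-45128751 (minus strand) and Rpl10a at chr17:28328574-28328603 (plus strand). A tract of this kind was present in genes that passed as higher, in genes that did not pass and in the gene that passed as lower. The 39 tested members with such a tract had a median log2 difference of 0.39, and the 19 with a window but no tract had 0.40. The letters CGGAAG, or CTTCCG on the other strand, occurred in 42 of the 72 windows (58.3%) and in 16.9% of all windows; such a match can overlap a tract. The median log2 difference was 0.39 for the 39 members with this motif and 0.40 for the 19 without it.

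The values are FPKM, fragment counts normalised for gene length and sequencing depth. Depth, estimated from the steps of the values, was 20.8 and 20.6 M reads in the 5-FU libraries and 41.3 and 41.6 M reads in the PBS libraries. Markers of other cells were low: the summed level of 5 leukocyte markers reached at most 0.0817 FPKM, and that of 8 epithelial markers lay between 0.769 and 1.73 FPKM in the 4 libraries, so the epithelial markers of a colon line were nearly absent. The 4 endothelial and erythroid markers summed to 3.56 and 3.03 FPKM in the 5-FU libraries and to 2.60 and 1.77 FPKM in the PBS libraries. Most of that was the globin gene Hba-a1. The 4 mesenchymal markers summed to 1375 and 1331 FPKM in the 5-FU libraries and to 1422 and 1568 FPKM in the PBS libraries. Of the mesenchymal markers, Col1a1 was low, at 0.796 to 1.29 FPKM. Mitochondrially encoded genes took 5.34% and 5.64% of all FPKM in the 5-FU libraries and 5.48% and 5.14% in the PBS libraries. The PBS libraries differed from each other in the genes studied here. PBS replicate 2 was above PBS replicate 1 for 72 of 79 tested members, with a median log2 difference of 0.27, while over all 11644 tested genes it was above for 4941, with a median of -0.07. In the 5-FU pair, replicate 2 was above replicate 1 for 12 of 79 members, with a median of -0.04. Results are therefore also given without either PBS library.

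Ribosomal protein transcripts were among the most abundant in the cells and took a larger share of the table after 5-FU. Summed over the 83 members they made up 15.3% and 14.9% of all FPKM in the 5-FU libraries and 12.1% and 13.7% in the PBS libraries. The sums were 59601 and 57641 FPKM with 5-FU, against 41532 and 49354 FPKM with PBS, and the groups did not overlap. The median tested member stood at 523 and 539 FPKM in the 5-FU libraries and at 394 and 478 FPKM in the PBS libraries, above 99.2% of the tested genes in the PBS libraries and 99.3% in the 5-FU libraries. Averaged over the 2 groups, 73 members reached at least 100 FPKM and 16 reached at least 1000 FPKM. The highest were the stalk genes Rplp0 and Rplp1, followed by Rpl32, Rps26 and Rpl8. The lowest of the tested members were the retrocopies Rpl6l, Rps27rt and Rpl37rt. The order of the genes was nearly the same in both groups: across the 79 tested members the log2 level in 5-FU and in PBS had a Pearson r of 0.99 and a Spearman rho of 0.98, a description over genes that share their libraries.

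**Figure D1:**
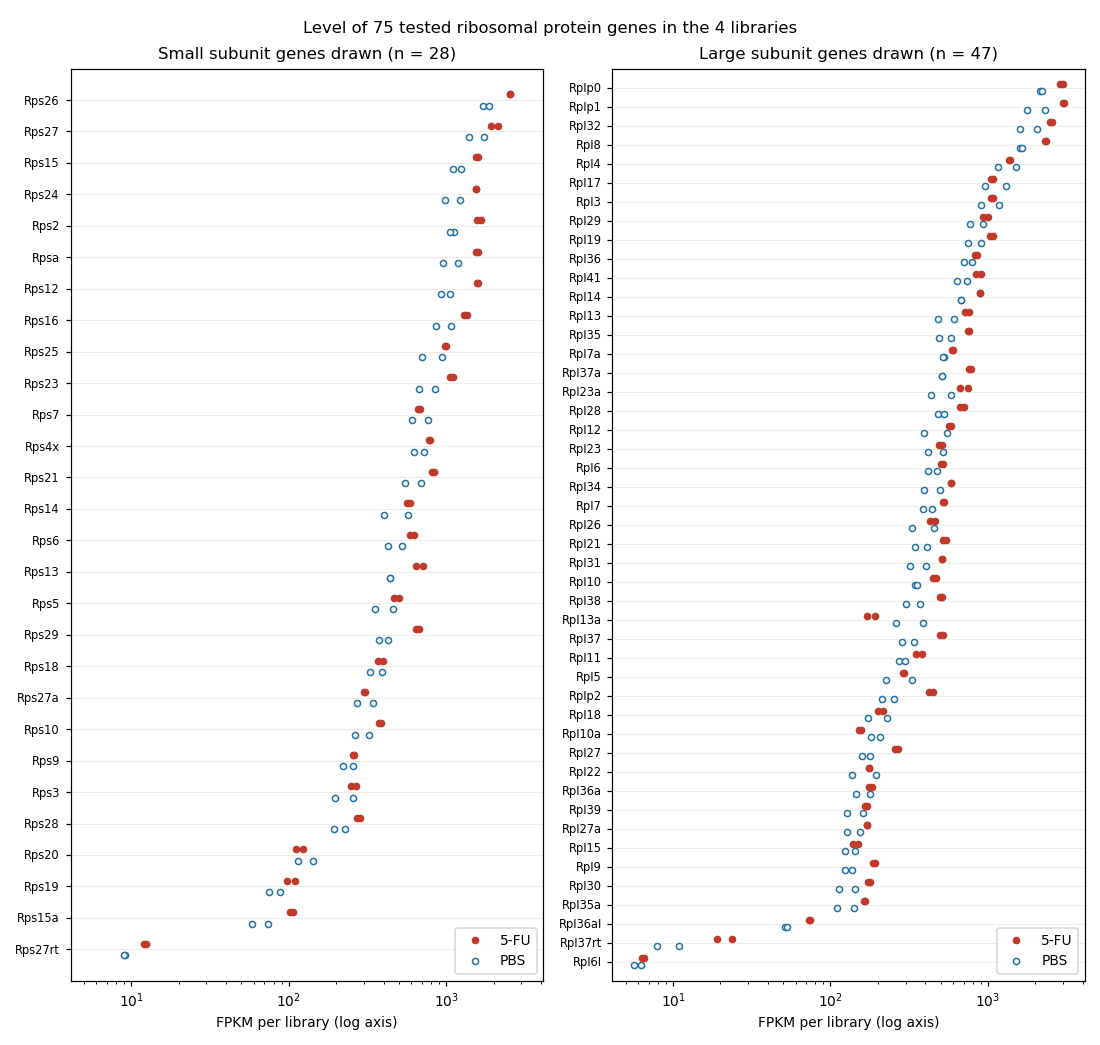
FPKM per library (log axis) of 75 of the 79 tested ribosomal protein genes, small subunit at left and large subunit at right, each gene with its 2 5-FU libraries (filled) above its 2 PBS libraries (open), ordered by mean level. The filled points lie to the right of both open points for 56 of the 75 genes drawn, and to the left of both for Rpl13a and Rpl10a only.

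After 5-FU, 27 of the 79 tested ribosomal protein transcripts (34.2%) passed the test as higher, where 22.1% of all tested genes did. Only Rpl13a (1.27%) passed as lower, where 31.2% of all tested genes did. The other 51 did not pass. At an unadjusted p under 0.05, 38 were higher and 2 lower. In either direction that was 40 of the 79 members, against 7067 of the 11644 tested genes. The log2 difference, taken on log2(FPKM + 1), was positive for 71 members and negative for 8, with a median of 0.39 and an interquartile range of 0.18 to 0.50. The median over all tested genes was -0.10. Both 5-FU libraries lay above both PBS libraries for 58 members (73.4%, against 35.9% of all tested genes). They lay below both for Rpl13a and Rpl10a (2.53%, against 45.1%). The groups overlapped for 19 members, and for 2216 of the 11644 tested genes. The number of positive differences was 53 after quantile normalization and 77 with median-ratio scaling. Since the table holds relative values of bulk cultures, more RNA per cell and a different number or mix of cells cannot be told apart.

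**Figure D2:**
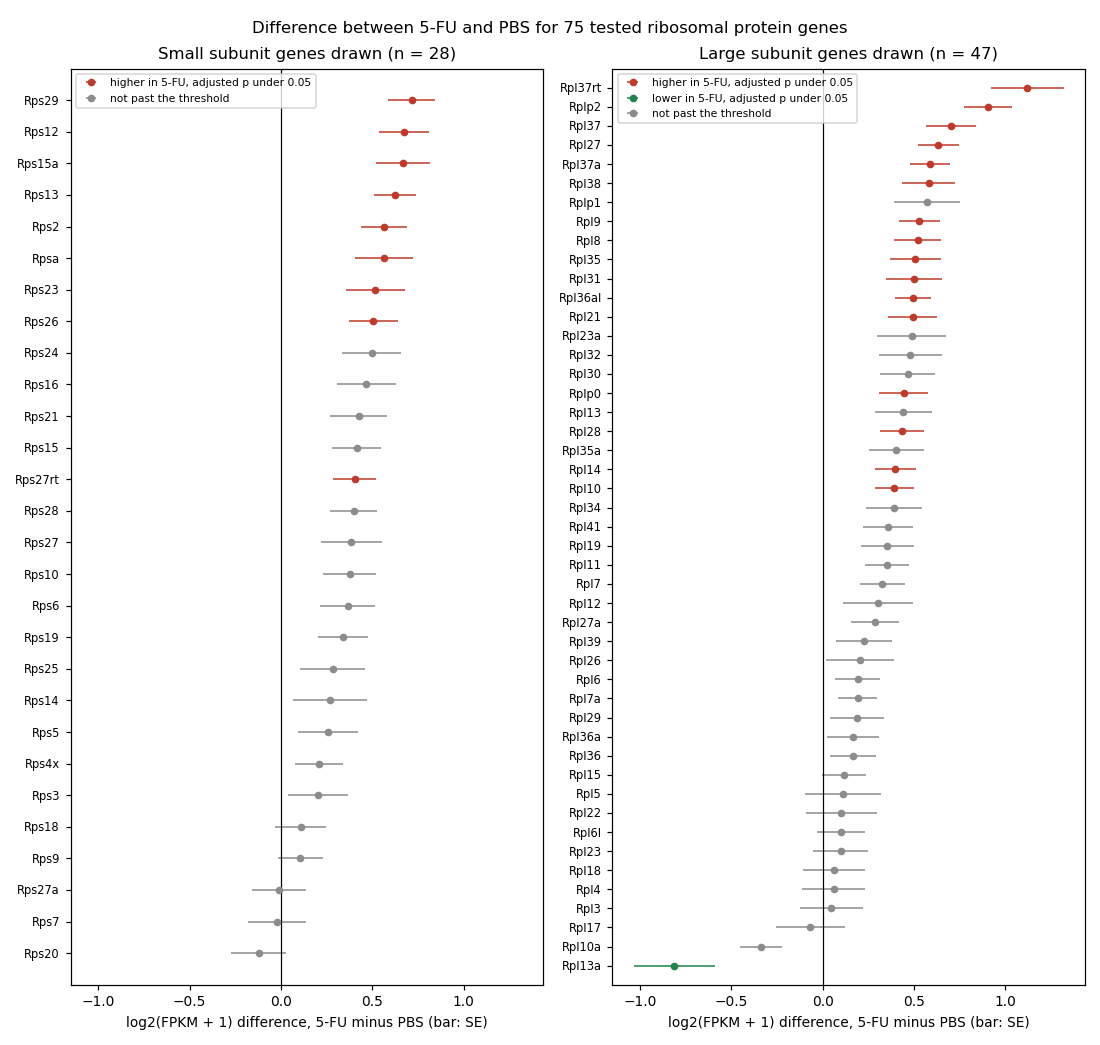
Log2(FPKM + 1) difference, 5-FU minus PBS, with its standard error for 75 of the 79 tested genes, small subunit at left and large subunit at right; red genes passed as higher, the green gene as lower, grey genes did not pass. Differences run from -0.81 for Rpl13a to 1.12 for Rpl37rt, and the 25 red genes drawn lie between 0.39 and 1.12.

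**Figure D3:**
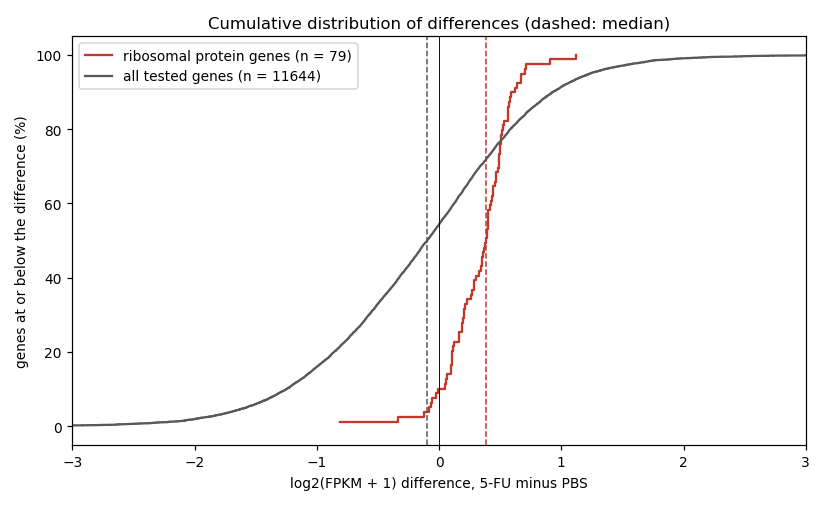
Cumulative share of genes at or below each log2(FPKM + 1) difference, 5-FU minus PBS, for the 79 tested ribosomal protein genes (red) and all 11644 tested genes (grey), with the axis drawn from -3 to 3. The red curve is steep and centred on 0.39, while the grey curve is wide and centred on -0.10.

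The size of the shift depended on the scaling and on the libraries. Relative to the median of all tested genes, the members' median was higher by 0.48 as reported. It was higher by 0.50 with median-ratio scaling, by 0.47 with a common FPKM sum and by 0.47 with a common sum of the other genes. It was higher by only 0.07 after quantile normalization and by 0.25 after removal of the trend with exonic length. The split of calls was 27 higher and 1 lower as reported, 10 and 2 after quantile normalization, and 10 and 3 with the length trend removed. The share of members called higher was 34.2%, against 22.1% of all tested genes, as reported. With all 4 libraries kept, it fell below that of all tested genes under some alternatives. These were quantile normalization (12.7% against 25.3%) and the length trend removed (12.7% against 20.2%). The others were the replicate number as a block (15.2% against 21.3%) and no filter on low values (9.76% against 10.0%). The share called lower was below that of all tested genes under each of the 16 alternatives. These scalings also moved the median of all tested genes, to 0.02 with median-ratio scaling, 0.02 with quantile normalization and -0.23 with a common sum. With PBS replicate 1 left out, the members' median log2 difference was 0.23, with 49 higher (62.0%, against 37.7% of all tested genes) and 8 lower (10.1%, against 42.7%). With PBS replicate 2 left out it was 0.50, with 69 higher (87.3%, against 32.8%) and 2 lower (2.53%, against 45.1%). Without either 5-FU library no member passed (2 were higher at an unadjusted p under 0.05 each time), and of all tested genes only 2.22% and 2.52% then passed as higher. Among the genes named in the next paragraphs, the sign of Rps3, Rps7, Rps20, Rps27a, Rpl3, Rpl4, Rpl5, Rpl17, Rpl22, Rpl23, Rpl26 and Rpl36a changed under at least 1 alternative, and none of these passed as reported. When a 5-FU library is left out the spread is judged from the PBS pair alone, and without a PBS library from the 5-FU pair alone.

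**Figure D4:**
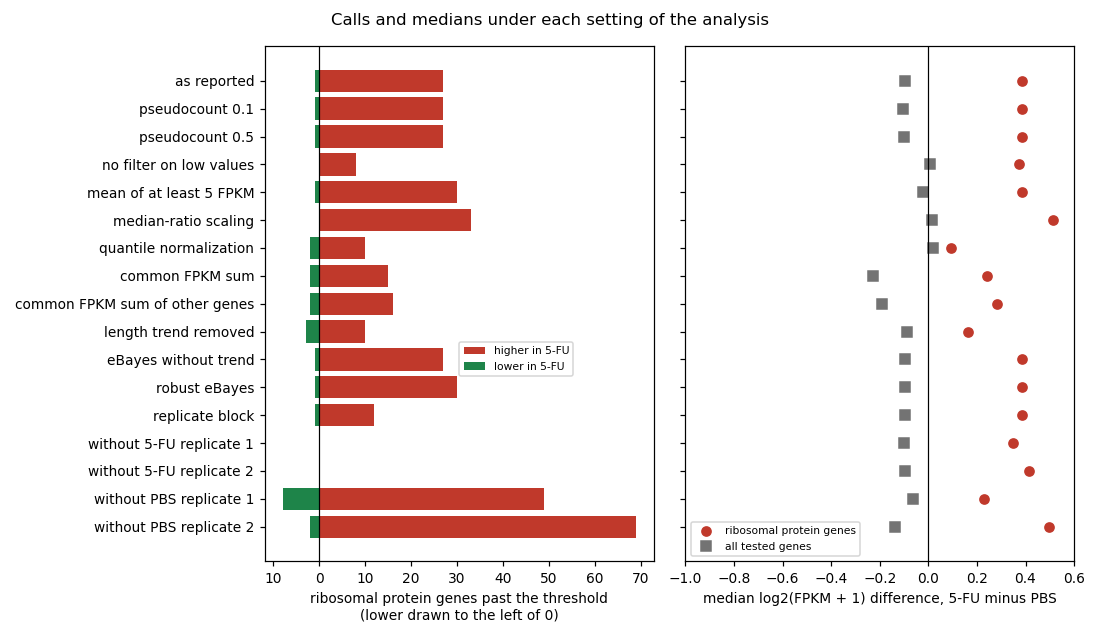
Number of ribosomal protein genes past the threshold (left; higher in 5-FU to the right of 0, lower to the left) and median log2(FPKM + 1) difference, 5-FU minus PBS (right; red circles, ribosomal protein genes; grey squares, all tested genes), under the reported and 16 other settings. The counts of higher genes run from 0 without a 5-FU library to 69 without PBS replicate 2, while the members' median stays above 0, between 0.09 and 0.51.

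In the small subunit, 11 of 31 tested genes (35.5%, against 22.1% of all tested genes) passed as higher and none as lower, against 31.2%. At an unadjusted p under 0.05, 16 of the 31 were higher and none lower. In either direction, 7067 of the 11644 tested genes were under that bound. The median log2 difference of the small subunit genes was 0.40. Rps29, a small zinc-binding protein of the subunit head, had 673 and 641 FPKM in the 5-FU libraries, against 373 and 429 FPKM in the PBS libraries. The groups were well apart, a 1.64-fold ratio of means and a log2 difference of 0.71 (SE 0.13, adjusted p = 0.0114). Rps12, which lies in the beak of the subunit, had 1593 and 1559 FPKM in the 5-FU libraries, against 922 and 1060.5 FPKM in the PBS libraries. This was 1.59-fold higher, with a log2 difference of 0.67 (SE 0.14, adjusted p = 0.0159). Rps15a, one of the core proteins that bind ribosomal RNA directly, had 102 and 106 FPKM in the 5-FU libraries, against 58.0 and 73.4 FPKM in the PBS libraries, and its log2 difference was 0.67 (SE 0.15, adjusted p = 0.02). Rps13, a protein of the central domain, had 709 and 646 FPKM in the 5-FU libraries, against 438 and 439.5 FPKM in the PBS libraries. Its PBS values were nearly equal, and its log2 difference was 0.62 (SE 0.12, adjusted p = 0.0128). Rps13 passed the test, with the same sign, under each of the 12 alternatives that keep all 4 libraries. Rps2, which lies near the entry of the messenger RNA channel, had 1664 and 1559.9 FPKM in the 5-FU libraries, against 1119 and 1060.0 FPKM in the PBS libraries. It was 1.48-fold higher (adjusted p = 0.0206).

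Rpsa, also known as the laminin receptor and placed on the solvent side of the head, had 1594 and 1553 FPKM in the 5-FU libraries, against 954 and 1187 FPKM in the PBS libraries. It was 1.47-fold higher, although the PBS libraries differed widely, and its log2 difference was 0.56 (SE 0.16, adjusted p = 0.0383). Rps26, which contacts the messenger RNA at the exit channel, had 2527 and 2532 FPKM in the 5-FU libraries, against 1707 and 1862 FPKM in the PBS libraries, the highest level among the small subunit genes, with a log2 difference of 0.50 (SE 0.13, adjusted p = 0.033). It was called in 9 of 16 alternatives, and after quantile normalization its difference was 0.0052. The small subunit genes Rps23 and Rps27rt also passed, with log2 differences of 0.52 and 0.40.

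Several small subunit proteins with known regulatory roles did not pass. Rps6, the target of the S6 kinases downstream of mTORC1, had 627 and 592 FPKM in the 5-FU libraries, against 425 and 525 FPKM in the PBS libraries. Both 5-FU values lay above both PBS values, yet the log2 difference of 0.37 (SE 0.15, adjusted p = 0.0982) missed the threshold. Rps19, the gene most often mutated in human Diamond-Blackfan anaemia, had 109.6 and 97.6 FPKM in the 5-FU libraries, against 74.99 and 88.5 FPKM in the PBS libraries, a log2 difference of 0.34 (SE 0.14, adjusted p = 0.0934). Rps14, whose loss underlies the anaemia of the human 5q syndrome, had 592 and 564 FPKM in the 5-FU libraries, against 401 and 572 FPKM in the PBS libraries. Its groups overlapped, with PBS replicate 2 between the 5-FU values (adjusted p = 0.306). Rps3, at the messenger RNA entry, had 268 and 249 FPKM in the 5-FU libraries, against 197 and 256 FPKM in the PBS libraries, and its groups overlapped too (adjusted p = 0.343). Rps7 had 682 and 663 FPKM in the 5-FU libraries, against 605 and 770.2 FPKM in the PBS libraries, and Rps27a, made as a fusion with ubiquitin, had 299 and 304 FPKM in the 5-FU libraries, against 271 and 340.2 FPKM in the PBS libraries. In both genes the 5-FU pair lay between the PBS libraries. Their log2 differences were -0.02 (SE 0.16, adjusted p = 0.917) and -0.01 (SE 0.15, adjusted p = 0.963), and their sign depended on the setting. Rps20 had 123 and 111 FPKM in the 5-FU libraries, against 114 and 142 FPKM in the PBS libraries, the lowest log2 difference of the small subunit at -0.12 (SE 0.15, adjusted p = 0.525). Its groups overlapped as well.

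In the large subunit, 16 of 48 tested genes (33.3%, against 22.1% of all tested genes) passed as higher and Rpl13a (2.08%, against 31.2%) as lower, and the median log2 difference was 0.36. The ratio of summed small to large subunit FPKM was 0.775 and 0.769 in the 5-FU libraries and 0.739 and 0.720 in the PBS libraries, so the groups did not overlap. Rpl37, a zinc-binding protein that also binds Mdm2, had 520.4 and 493 FPKM in the 5-FU libraries, against 285 and 339 FPKM in the PBS libraries. It was 1.62-fold higher, with a log2 difference of 0.70 (SE 0.14, adjusted p = 0.0139). Rpl27 had 267 and 259 FPKM in the 5-FU libraries, against 159.6 and 179 FPKM in the PBS libraries, a log2 difference of 0.63 (SE 0.11, adjusted p = 0.0116). Rpl37a, another zinc-binding protein, had 780.0 and 763 FPKM in the 5-FU libraries, against 513 and 513 FPKM in the PBS libraries, values that were close within each group, and a log2 difference of 0.59 (SE 0.11, adjusted p = 0.0129). Rpl38, whose loss gives the short-tailed Tail-short mouse, had 493 and 509 FPKM in the 5-FU libraries, against 300.5 and 373 FPKM in the PBS libraries. Its log2 difference was 0.58 (SE 0.15, adjusted p = 0.029), but 0.06 with the length trend removed (adjusted p = 0.752). Rpl8, which reaches towards the peptidyl transferase centre, had 2346 and 2307 FPKM in the 5-FU libraries, against 1587 and 1655 FPKM in the PBS libraries, and Rpl9 had 187 and 191 FPKM in the 5-FU libraries, against 124 and 138 FPKM in the PBS libraries. The groups did not overlap, and both genes were 1.44-fold higher (adjusted p = 0.0266 and 0.0174).

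Rpl35, at the mouth of the exit tunnel, had 763 and 751 FPKM in the 5-FU libraries, against 486 and 584 FPKM in the PBS libraries, a log2 difference of 0.51 (SE 0.14, adjusted p = 0.0366). Rpl31 lies there too and rose by a log2 difference of 0.50 (adjusted p = 0.0471). Rpl21 had 518 and 539 FPKM in the 5-FU libraries, against 346 and 407 FPKM in the PBS libraries, and Rpl10, a protein near the P site that is mutated in human T-cell leukaemia, had 466 and 449 FPKM in the 5-FU libraries, against 343 and 354 FPKM in the PBS libraries. These were 1.40-fold and 1.31-fold higher (adjusted p = 0.0338 and 0.0356). Rpl28 and Rpl14 passed with log2 differences of 0.44 and 0.40. Several other large subunit genes did not pass. Rpl3, which reaches into the peptidyl transferase centre, had 1074 and 1048 FPKM in the 5-FU libraries, against 898 and 1175 FPKM in the PBS libraries, and Rpl4, which lines the exit tunnel, had 1389.6 and 1367 FPKM in the 5-FU libraries, against 1159 and 1507 FPKM in the PBS libraries. Their groups overlapped, with the 5-FU pair inside the PBS range, and their log2 differences were 0.05 (SE 0.17, adjusted p = 0.834) and 0.06 (SE 0.17, adjusted p = 0.785). Rpl17 also lay inside the PBS range, with a log2 difference of -0.07. Rpl22 had 175 and 177 FPKM in the 5-FU libraries, against 137 and 195 FPKM in the PBS libraries, again inside the PBS range, with a log2 difference of 0.10 (SE 0.19, adjusted p = 0.674).

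The ribosomal stalk carries the acidic P proteins that recruit translation factors: Rplp0 is its base, and pairs of Rplp1 and Rplp2 are bound to it. All 3 genes had both 5-FU libraries above both PBS libraries, as did 73.4% of the tested members and 35.9% of all tested genes. Of the 3, 2 passed as higher, where 34.2% of the tested members and 22.1% of all tested genes did. Rplp2 (ENSMUSG00000025508, chr7:141447370-141451585, plus strand) had 421 and 449 FPKM in the 5-FU libraries, against 252 and 213 FPKM in the PBS libraries. It was 1.87-fold higher with a log2 difference of 0.91 (SE 0.13, adjusted p = 0.00712), the smallest adjusted p of any member, and the difference was 1.03 when PBS replicate 1 was left out and 0.78 when PBS replicate 2 was. Over its 16 alternatives the adjusted p ran from 5.7e-05 to 0.113, past the threshold in 14, and missed it only when a 5-FU library was left out; the same holds for Rpl37rt. Rplp0 had 3011 and 2877 FPKM in the 5-FU libraries, against 2128 and 2199 FPKM in the PBS libraries, a log2 difference of 0.44 (SE 0.13, adjusted p = 0.0455), which was called in 8 of 16 alternatives. Rplp1 had 3024 and 2990.4 FPKM in the 5-FU libraries, against 1778 and 2309 FPKM in the PBS libraries. Its 5-FU values were close together and its PBS values far apart, and its log2 difference of 0.57 (SE 0.18, adjusted p = 0.0517) did not pass. Relative to Rplp1, Rplp2 stood at 13.9% and 15.0% in the 5-FU libraries and at 14.2% and 9.22% in the PBS libraries, which overlap.

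Other scalings moved single genes by unequal amounts. Of the 27 members higher as reported, 9 were also higher with the length trend removed, 10 after quantile normalization and 15 with a common FPKM sum. The genes given here are examples and not full lists of the lost calls. With the length trend removed, log2 differences that passed as reported were 0.06 for Rpl38, 0.21 for Rpl35, 0.21 for Rpl10, 0.22 for Rpl36al, 0.22 for Rplp0, 0.24 for Rpl8, 0.26 for Rps29, 0.26 for Rps26, 0.32 for Rpl37a, 0.36 for Rps2 and 0.50 for Rpsa, and these no longer passed. They were smaller by more than 1.5 times but still passed at 0.39 for Rpl27 and 0.69 for Rpl37rt. After quantile normalization they were 0.0052 for Rps26, 0.03 for Rplp0, 0.08 for Rpl10, 0.12 for Rpl8, 0.18 for Rpsa, 0.20 for Rpl9, 0.26 for Rpl21, 0.28 for Rps2, 0.32 for Rpl27, 0.32 for Rpl38, 0.34 for Rps12 and 0.47 for Rps15a, none of which passed, while 0.34 for Rpl35, 0.47 for Rpl37, 0.47 for Rps29 and 0.57 for Rplp2 passed at the smaller value. Among the calls lost with a common FPKM sum were 0.25 for Rpl10, 0.30 for Rplp0, 0.35 for Rpl21, 0.36 for Rps26, 0.36 for Rpl35 and 0.42 for Rpsa. Of the 27 members higher as reported, 8 were also higher with no filter on low values, which tests 23640 genes.

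Rpl13a was the only member that passed as lower. Its protein can leave the ribosome in human cells and silence inflammatory transcripts as part of the GAIT complex. The gene (ENSMUSG00000074129, chr7:45125558-45128761, minus strand) hosts the small nucleolar RNAs Snord32a, Snord33, Snord34 and Snord35a within its span, and the annotation places the model Gm45713 over it on the same strand, so reads may be shared between them. Rpl13a had 191 and 172 FPKM in the 5-FU libraries, against 259.9 and 389 FPKM in the PBS libraries. Both 5-FU values were below both PBS values, the ratio of means was 0.558, and the log2 difference was -0.81 (SE 0.22, adjusted p = 0.0354). Leaving out PBS replicate 1 gave -1.10 and leaving out PBS replicate 2 gave -0.52, and both passed. It was called lower in 12 of 16 alternatives. It missed the threshold with no filter on low values (adjusted p = 0.110), with median-ratio scaling (0.0693) and without 5-FU replicate 1 or 2 (0.154 and 0.211), with a negative sign in all 16. Set against Rpl13, which despite its name is a different protein of the same subunit, Rpl13a stood at 25.1% and 24.0% in the 5-FU libraries and at 53.9% and 64.2% in the PBS libraries.

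Rpl10a, the protein of the mobile L1 stalk near the exit of transfer RNA, was the other gene below PBS in both libraries. The gene (ENSMUSG00000037805, chr17:28328471-28331033, plus strand) had 155 and 151 FPKM in the 5-FU libraries, against 182 and 206 FPKM in the PBS libraries. The groups did not overlap, but the log2 difference of -0.34 (SE 0.12, adjusted p = 0.0651) did not pass. It was called lower in 6 of 16 alternatives: after quantile normalization (-0.67, adjusted p = 0.00857), with a common FPKM sum (-0.48), with a common sum of the other genes (-0.44), with the length trend removed (-0.48), and without PBS replicate 1 (-0.43) or PBS replicate 2 (-0.25). Over the 16 the adjusted p ran from 0.000974 to 0.415. An antisense model overlaps it, and the sources used here do not say whether strand was used in the counting.

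To ask which genes departed from the rest of the ribosomal proteins, the median log2 level of the tested members was subtracted in each library before the same test. Below that median, 2 members passed (2.53% of 79), where 35.8% of all tested genes did. These were Rpl13a at -1.10 (SE 0.17, adjusted p = 0.0083) and Rpl10a at -0.63 (SE 0.14, adjusted p = 0.0213). Above it, none passed, where 7.13% of all tested genes did, and 6 members were above at an unadjusted p under 0.05. The subtraction is built on the members themselves, so their low shares against all tested genes follow partly from it. The centred differences of the 79 members had a median of 0.095, and 48 were positive. The furthest above were Rpl37rt at 0.83 (SE 0.28, adjusted p = 0.0654), Rplp2 at 0.61 (SE 0.21, adjusted p = 0.0662), Rps29 at 0.42 (SE 0.13, adjusted p = 0.0506), Rpl37 at 0.41 (SE 0.13, adjusted p = 0.0564) and Rps12 at 0.38 (SE 0.12, adjusted p = 0.0513). Among the other members furthest below were Rps20 at -0.41 (SE 0.15, adjusted p = 0.0822) and Rpl17 at -0.36 (SE 0.13, adjusted p = 0.0785), which did not pass. Leaving out PBS replicate 1 gave 16 above (20.3%, against 30.6% of all tested genes) and 12 below (15.2%, against 49.0%). Leaving out PBS replicate 2 gave 10 above (12.7%, against 15.3%) and 9 below (11.4%, against 65.2%).

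Among the 16 members known to bind Mdm2, 2 passed as higher (12.5%, against 22.1% of all tested genes) and none as lower, against 31.2% (none at an unadjusted p under 0.05 either), at a median log2 difference of 0.20, against 0.39 for the 79 tested members. For 9 of the 16 the groups overlapped, as they did for 19 of the 79 tested members and 2216 of the 11644 tested genes. The Mdm2 binders that passed were Rpl37 and Rps26. Rpl5 and Rpl11 form, with 5S ribosomal RNA, the particle that holds Mdm2. Rpl5 had 295 and 290.3 FPKM in the 5-FU libraries, against 224 and 328 FPKM in the PBS libraries, with the 5-FU pair inside the PBS range and a log2 difference of 0.11 (SE 0.21, adjusted p = 0.671). Rpl11 had 379 and 348 FPKM in the 5-FU libraries, against 270.4 and 298 FPKM in the PBS libraries. Both of its 5-FU values were above both PBS values, but its log2 difference of 0.35 (SE 0.12, adjusted p = 0.0622) missed the threshold. As a share of Rpl5, Rpl11 stood at 129% and 119.9% in the 5-FU libraries and at 121% and 91.1% in the PBS libraries, so that ratio overlapped. Rpl23 had 511 and 488 FPKM in the 5-FU libraries, against 417 and 521 FPKM in the PBS libraries, and Rpl26, which in human cells also binds p53 messenger RNA, had 459.8 and 431 FPKM in the 5-FU libraries, against 329 and 454 FPKM in the PBS libraries. Their groups overlapped (adjusted p = 0.608 and 0.396). Levels of transcript do not show how much protein is free of the ribosome, which these data do not measure.

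Among the 20 members whose human counterparts are mutated in Diamond-Blackfan anaemia, an inherited failure of red cell production, 8 passed as higher (40%, against 22.1% of all tested genes) and none as lower, against 31.2% (none at an unadjusted p under 0.05 either), with a median log2 difference of 0.40. The 3 with the largest differences were Rps29, Rps15a and Rpl27, whose values are given above. Rps7 was the only one with a negative difference (-0.02). The groups overlapped for 5 of the 20, against 19 of the 79 tested members and 2216 of the 11644 tested genes.

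Paralogs and retrocopies are uncertain, because reads from near-identical copies can be assigned to either. The annotation names 298 pseudogenes for 60 of the members, with up to 24 for Rps12 and Rpl31. It places antisense models over 23 members, among them Rps2, Rps14, Rps27a, Rpl3, Rpl5, Rpl10a, Rpl31 and Rpl35, and same-strand models over 5 (Rpl13, Rpl13a, Rpl19, Rpl36al and Rps10), so these values are less certain. Rpl37rt (ENSMUSG00000072692, chr5:115102923-115110268, minus strand), a retrocopy of Rpl37 annotated as a transcribed processed pseudogene, had 19.1 and 23.9 FPKM in the 5-FU libraries, against 10.8 and 7.95 FPKM in the PBS libraries. It had the largest difference of all members, a 2.29-fold ratio and a log2 difference of 1.12 (SE 0.20, adjusted p = 0.0112). Its level as a share of Rpl37 was 3.67% and 4.83% in the 5-FU libraries and 3.80% and 2.34% in the PBS libraries. These shares overlapped, so Rpl37rt and Rpl37 were not separated by this ratio, and whether reads of Rpl37 contribute to Rpl37rt was not tested. Rps27rt, a retrocopy of Rps27, stood at 0.586% and 0.626% of Rps27 in the 5-FU libraries and at 0.656% and 0.518% in the PBS libraries, also overlapping. Rpl36al, an autosomal paralog of the X-linked Rpl36a, had 74.6 and 73.0 FPKM in the 5-FU libraries, against 51.3 and 52.9 FPKM in the PBS libraries. It passed at 0.49 (SE 0.10, adjusted p = 0.0154), while Rpl36a had 185 and 176 FPKM in the 5-FU libraries, against 145 and 178 FPKM in the PBS libraries, with overlapping groups (adjusted p = 0.362). The share of Rpl36al relative to Rpl36a was 40.4% and 41.4% in the 5-FU libraries and 35.5% and 29.6% in the PBS libraries, which did not overlap. The model Gm49383 overlaps Rpl36al on the same strand. Rpl6l stood at 1.23% and 1.30% of Rpl6 with 5-FU and at 1.35% and 1.32% with PBS.

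Tissue-restricted members were at or near 0. Rpl3l, the paralog of Rpl3 used in heart and skeletal muscle, had 0.151 and 0.152 FPKM in the 5-FU libraries, against 0.106 and 0.121 FPKM in the PBS libraries. The testis paralog Rpl39l was listed at 0 and at 0.0584 FPKM in the 5-FU libraries, against 0.0291 and 0.0289 FPKM in the PBS libraries. The testis paralog Rpl10l was listed at 0 in all 4 libraries. The pseudogene Rps4l was listed at 0 in all but PBS replicate 1, where it had 0.0257 FPKM. These 4 fell under the filter of at least 1 FPKM in at least 2 libraries. The lowest value of a tested member was 5.64 FPKM, for Rpl6l in PBS replicate 1, so every tested member passed the filter in both groups.

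Ribosomal proteins and paralogs whose symbols the rule does not match had positive differences throughout. Of 7 tested, 3 passed as higher (42.9%, against 22.1% of all tested genes) and none as lower, against 31.2%, and none was negative, at a median log2 difference of 0.59. Rps27l, the paralog of Rps27 induced by p53, had 136 and 129 FPKM in the 5-FU libraries, against 67.4 and 63.8 FPKM in the PBS libraries, a log2 difference of 1.00 (SE 0.10, adjusted p = 0.00386). Rps3a1, the functional small subunit gene, had 1409.8 and 1384 FPKM in the 5-FU libraries, against 922 and 1093 FPKM in the PBS libraries, with 0.48 (SE 0.14, adjusted p = 0.0455). The difference of Rps27l was larger than that of every tested member but Rpl37rt. Fau, a fusion with a ubiquitin-like protein, had 573 and 523 FPKM in the 5-FU libraries, against 448 and 553 FPKM in the PBS libraries, and the scaffold Rack1 had 315 and 304 FPKM in the 5-FU libraries, against 254 and 323 FPKM in the PBS libraries; the groups overlapped in both. Rpl22l1, the paralog that Rpl22 holds down in mice, had 70.7 and 72.2 FPKM in the 5-FU libraries, against 38.6 and 57.1 FPKM in the PBS libraries, and did not pass at a log2 difference of 0.59 (SE 0.21, adjusted p = 0.0666).

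Other genes with a TOP tract, mostly translation factors, had a median log2 difference of 0.39, with values from -0.43 to 0.80; a difference from the ribosomal proteins was not tested. Of 17 tested, 7 passed as higher (41.2%, against 22.1% of all tested genes) and 1 as lower (5.88%, against 31.2%). Eif3e and Eif3f, subunits of the initiation factor eIF3, passed at 0.80 (SE 0.15, adjusted p = 0.0138) and 0.72 (SE 0.11, adjusted p = 0.00714). Eif2s3x, a subunit of the factor that brings the initiator transfer RNA, passed at 0.66 (SE 0.11, adjusted p = 0.00984). The import receptor Ipo7 was lower at -0.43 (SE 0.11, adjusted p = 0.0269). Eef1a1, the most abundant of them, had 2551 and 2541 FPKM in the 5-FU libraries, against 2970.4 and 3322 FPKM in the PBS libraries; both 5-FU values were below both PBS values, without passing at -0.30 (SE 0.14, adjusted p = 0.137).

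Of 18 tested regulators of TOP messenger RNAs, 4 passed as higher (22.2%, against 22.1% of all tested genes) and 8 as lower (44.4%, against 31.2%), with a median log2 difference of -0.39. The share called higher was that of the whole table, where lower calls also outnumber higher ones. Higher were Cnbp, a zinc-finger protein that binds TOP messenger RNAs, at 1.16 (SE 0.11, adjusted p = 0.00368), the mTORC1 subunits Akt1s1 at 0.88 (SE 0.15, adjusted p = 0.0104) and Mlst8 at 0.76 (SE 0.23, adjusted p = 0.0436). Lower were Deptor, an inhibitor of mTOR, at -2.10 (SE 0.14, adjusted p = 0.0027), Eif4ebp2, a repressor of cap-dependent translation, at -1.58 (SE 0.20, adjusted p = 0.00531), and Tia1, an RNA-binding protein, at -1.48 (SE 0.18, adjusted p = 0.00501). The remaining calls were Rheb, higher at 0.43, and Rps6kb1, Rptor, Mtor, Eif4ebp1 and Larp1, lower at -1.02, -0.94, -0.81, -0.80 and -0.80. Transcript levels of these regulators do not measure the activity of mTORC1.

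A list of chaperones, importers and assembly factors of ribosomal proteins also held the nascent chain complex. Of its 12 tested genes, 5 passed as higher (41.7%, against 22.1% of all tested genes) and 2 as lower (16.7%, against 31.2%). Their median log2 difference was 0.34. Tsr2, the chaperone of Rps26, had 24.4 and 25.1 FPKM in the 5-FU libraries, against 12.5 and 7.03 FPKM in the PBS libraries, a log2 difference of 1.31 (SE 0.27, adjusted p = 0.0166). Bccip, the chaperone of Rpl23, had 53.6 and 57.9 FPKM in the 5-FU libraries, against 30.8 and 26.4 FPKM in the PBS libraries, with 0.94 (SE 0.13, adjusted p = 0.00591). Ltv1, an assembly factor of the small subunit, had 59.6 and 58.7 FPKM in the 5-FU libraries, against 36.0 and 30.1 FPKM in the PBS libraries, with 0.83 (SE 0.13, adjusted p = 0.008). In all 3 both 5-FU values were above both PBS values. The importins Ipo9 and Ipo5 were lower, at -1.12 (SE 0.18, adjusted p = 0.00803) and -0.50 (SE 0.10, adjusted p = 0.0159). Btf3 and Naca, the subunits of the nascent chain complex at the tunnel exit, were higher at 0.71 and 0.40. Pdcd2 and Nacad were under the filter on low values.

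Gene structure was set beside the differences as a description. Members are short: the 77 tested protein-coding members had a median coding length of 453 bp and a median exonic length of 1781 bp, against 1368 bp and 4484 bp for the 10366 tested protein-coding genes. Among the members, the log2 difference was lower for genes of greater coding length, with a Pearson r of -0.32 and a Spearman rho of -0.37 across 77 genes. Across all tested protein-coding genes these were -0.21 and -0.23. With exonic length the r and rho were -0.22 and -0.26 across 79 members, close to the -0.24 and -0.25 across all tested protein-coding genes. Genes share their libraries and depth, so no test is given. Members with under 300 bp of coding sequence had a median log2 difference of 0.41 (n = 10), those with 300 to under 600 bp had 0.41 (n = 44), and those with at least 600 bp had 0.21 (n = 23). Over all tested protein-coding genes the medians of the same classes were 0.34 (n = 215), 0.17 (n = 1177) and -0.21 (n = 8974). Short genes in general thus had higher differences. Whether length itself takes part in the members' difference was not tested beyond the fit with the length trend removed. That fit used exonic length, not coding length. In it 10 members were higher (12.7%, against 20.2% of all tested genes), 9 of them among the 27 called as reported.

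**Figure D5:**
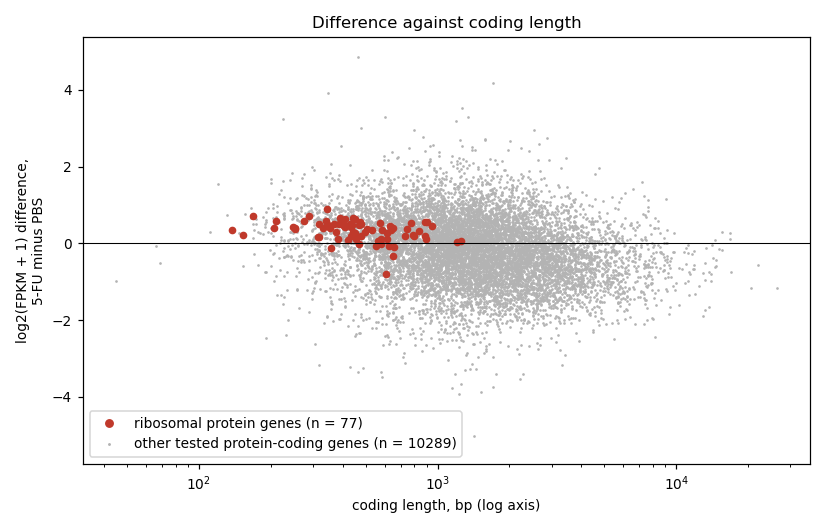
Log2(FPKM + 1) difference, 5-FU minus PBS, against coding length in bp (log axis) for the 77 tested protein-coding ribosomal protein genes (red) and the other tested protein-coding genes (grey). The red points lie among the shorter genes, from 138 to 1257 bp, and most are above 0.

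Hosting of small nucleolar RNAs, position and level were compared as further descriptions. Hosting means that the small RNA lies within the gene's span on the same strand. The 29 members that host 56 small nucleolar RNAs had a median log2 difference of 0.30. Of these, 9 were higher (31.0%, against 22.1% of all tested genes) and 1 lower (3.45%, against 31.2%). The 50 tested members that host none had 0.39, with 18 higher (36.0%) and none lower. The members are spread over 19 chromosomes, with 14 on chromosome 7 and 4 on X. The log2 difference had a Pearson r of 0.06 and a Spearman rho of 0.18 with the mean log2 level across 79 members.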

How the data were processed

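The authors deposited 1 table of FPKM values for 36445 genes in 4 libraries. RNA was selected by poly(A), per the labels' protocols. STAR 2.4.1a, Picard 2.9.0 and GRCm38 appear in the submitters' processing notes without their roles. Which program counted the reads, with which annotation and strand setting, is not stated in the sources used here. Depth was estimated from FPKM steps: 63.1% to 65.1% of low values lay within 0.02 of a whole read.

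The comparison used limma 3.58.1 under R 4.3.3 (linear model, then eBayes with trend) on log2(FPKM + 1). Testing covered the 11644 genes that reached 1 FPKM in 2 or more of the libraries. The p-values are two-sided, Benjamini-Hochberg adjusted over all tested genes, with a threshold of 0.05. This scale understates differences of low genes, and each fold is the mean FPKM of 5-FU over that of PBS. Called members and list genes are given with the share of all tested genes called, in place of a test of the list. GENCODE M21 held 36379 of the gene IDs; sequences are RefSeq's (GRCm38.p6). The fit was checked on simulated data.

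Members and gene lists were chosen with earlier results of these data known. Named genes were the members past the threshold (up to 20 by p), the 6 highest and 6 lowest, the 6 furthest above and below the members' median, and a set of well-studied members. Other genes named were up to 3 per direction of each list; further called members are named by their log2 difference only. Some genes are not reported here by name or drawn by gene; the counts over the members include them.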

Additional observations from a re-analysis of the deposited data

How the results depend on the processing

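The members' median log2 difference was positive under each of the 16 alternatives. As reported 27 members were higher and 1 lower. Under pseudocounts of 0.1 and 0.5, eBayes without trend, robust eBayes and a mean of at least 5 FPKM, 27 to 30 were higher. These were 34.2% to 38.0% of the members, against 21.6% to 23.2% of all tested genes. With median-ratio scaling 33 were higher (41.8%, against 27.5%). Fewer were higher with no filter on low values (8, with 0 lower; 9.76% higher against 10.0% of all tested genes), quantile normalization (10, with 2 lower; 12.7% against 25.3%), a common FPKM sum (15, with 2; 19.0% against 16.5%), a common sum of the other genes (16, with 2; 20.3% against 17.9%) and the length trend removed (10, with 3; 12.7% against 20.2%). Median-ratio scaling gave 0 lower. Leaving out a library gave 0 to 69 higher and 0 to 8 lower, and a median of 0.23 to 0.50. The median was 0.093 with quantile normalization, 0.24 with a common FPKM sum and 0.16 with the length trend removed. For the small subunit it was 0.093 with quantile normalization and 0.17 with the length trend removed, and for the large subunit 0.10 and 0.12. Relative to the members' median, 1 member was above with a pseudocount of 0.1, 2 with no filter, 1 with a mean of at least 5 FPKM, 2 with robust eBayes and 3 with the length trend removed, which also gave 6 below (7.59%, against 27.6% of all tested genes). In these fits 5.10% to 8.20% of all tested genes were above; leaving out a library gave 0 to 16 above and 0 to 12 below.

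Replicate differences of 5-FU and PBS had a correlation of -0.01 over 11644 genes. A weak pairing could leave no such correlation, so it does not settle whether the replicate numbers pair the libraries. With the replicate block 12 members were higher (15.2%, against 21.3% of all tested genes) and 1 lower (1.27%, against 30.5%), and 2 were above the members' median (2.53%, against 10.6%).

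Some members with differences near 0 changed sign. Quantile normalization gave -0.25 for Rpl22, -0.093 for Rpl23, -0.058 for Rpl26, -0.21 for Rpl3, -0.18 for Rpl36a, -0.34 for Rpl4, -0.18 for Rpl5 and -0.13 for Rps3. A common FPKM sum gave -0.043 for Rpl22, -0.048 for Rpl23, -0.10 for Rpl3, -0.086 for Rpl4 and -0.034 for Rpl5. A common sum of the other genes gave -0.0010 for Rpl22, -0.0057 for Rpl23, -0.057 for Rpl3 and -0.044 for Rpl4. Removing the length trend gave -0.11 for Rpl23, -0.057 for Rpl26, -0.017 for Rpl3, -0.058 for Rpl36a and -0.12 for Rpl4. Median-ratio scaling gave 0.062 for Rpl17, 0.0055 for Rps20, 0.12 for Rps27a and 0.11 for Rps7. Leaving out a library gave -0.29 to 0.16 for Rpl17, -0.15 to 0.35 for Rpl22, -0.061 to 0.26 for Rpl23, -0.028 to 0.44 for Rpl26, -0.15 to 0.24 for Rpl3, -0.13 to 0.25 for Rpl4, -0.16 to 0.39 for Rpl5, -0.28 to 0.037 for Rps20, -0.17 to 0.15 for Rps27a and -0.20 to 0.15 for Rps7. The cause of each of these changes was not tested. With 2 libraries a group, no permutation test of a gene was run. The 5-FU libraries were the shallower ones, which limits the members listed near 0.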
